A study of Mus musculus with 24 samples.

Results

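The genes described here encode the subunits of the mitochondrial respiratory chain and ATP synthase, with several complex I assembly factors that share their symbols. They were taken as every protein-coding gene of the count table whose symbol begins with Nduf, Uqcr, Cox4 to Cox8, Atp5 or mt-, or is Sdha, Sdhb, Sdhc or Sdhd. The rule found 109 genes among 55487, of which 96 lie in the nucleus and 13 on the mitochondrial chromosome. Of the 96 nuclear genes, 91 passed the filter on low counts, and all 13 mitochondrial genes passed. Cox7b2, Cox8c and a second identifier carrying the symbol Atp5o had 0 counts over all libraries, Cox8b had 22 and Ndufa4l2 had 31.

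RNA was sequenced from mouse LSK cells (Lineage-Sca1+KIT+), a sorted population of blood stem cells together with early multipotent progenitors. The 24 libraries fall into 6 groups of 4: E16 ME, E16 control, P14 ME, P14 control, 8wk ME and 8wk control. ME cells came from Tet-On-ME mice, in which the leukaemia fusion MLL::ENL was induced after sorting, in a culture of 48 h. Control cells went through the same sort and culture, and the labels do not say which parts of the Tet-On system they carried. E16 is an embryonic stage and its cells came from liver, while P14 (14 days after birth) and 8wk (8 weeks of age) cells came from bone marrow, so at E16 age and tissue cannot be told apart. Nothing in the labels says whether the libraries of a group came from separate animals, so the spread behind the p-values is that among these libraries and may be technical.

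The respiratory chain passes electrons from NADH through complex I, or from succinate through complex II, to ubiquinone, then through complex III and cytochrome c to complex IV, where oxygen is reduced. Complexes I, III and IV pump protons across the inner membrane, and ATP synthase (complex V) uses the returning protons to make ATP. Complex II is built from nuclear genes alone, and the other complexes combine nuclear subunits with a few that are encoded by mitochondrial DNA. Resting blood stem cells are known for relying little on this pathway, and their progeny for using it more as they differentiate.

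Library totals ranged from 33.9 to 69.3 M counts. All 8 LSK markers were detected in every library, with Kit at 376 to 1763 CPM (counts scaled to library size by TMM) and Ly6a, which encodes Sca1, at 61.9 to 827 CPM. Mllt1, the ENL part of the fusion, ranged over 35.7 to 89.3 CPM in ME libraries and 9.90 to 29.8 CPM in control libraries. The 3 libraries farthest from the mean of their group over all genes were E16 ME replicate 4, 8wk ME replicate 4 and 8wk control replicate 1. In these 3 the summed level of 6 neutrophil markers went against the rest of their group, at 41.5, 37.0 and 788 CPM, beside 835 to 1022 CPM in the other E16 ME libraries, 827 to 1356 CPM in the other 8wk ME libraries and 17.1 to 30.4 CPM in the other 8wk control libraries. Results that rest on them are given with and without them.

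Taken as a share of all counts in a library, the nuclear genes were lower in ME cells than in control cells at each age. The share averaged 2.15 ± 0.19% in E16 ME cells and 2.55 ± 0.11% in E16 control cells (SD, n = 4 each, as throughout). It averaged 2.05 ± 0.12% in P14 ME cells and 2.43 ± 0.10% in P14 control cells. At 8wk it averaged 2.04 ± 0.15% in ME cells and 2.60 ± 0.27% in control cells. At every age the highest ME library lay below the lowest control library, by 2.39 against 2.42% at E16, 2.22 against 2.33% at P14 and 2.23 against 2.28% at 8wk. These sums are descriptions and carry no test. In bulk RNA, fewer cells of one type and less RNA per cell cannot be told apart.

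The 13 mitochondrial genes followed another pattern. Their share of counts averaged 0.241 ± 0.053% in E16 ME cells and 0.234 ± 0.039% in E16 control cells, and 0.286 ± 0.058% in P14 ME cells and 0.287 ± 0.010% in P14 control cells. At 8wk it averaged 0.168 ± 0.022% in ME cells and 0.315 ± 0.062% in control cells. The 8wk ME libraries held 0.139, 0.180, 0.163 and 0.190%, and the 8wk control libraries 0.231, 0.378, 0.333 and 0.317%. ME and control libraries therefore overlapped at E16 and P14 and did not overlap at 8wk. The highest 8wk ME library and the lowest 8wk control library were the ones whose neutrophil markers stood apart, and without them the nearest values were 0.180% in ME cells and 0.317% in control cells.

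**Figure D1:**
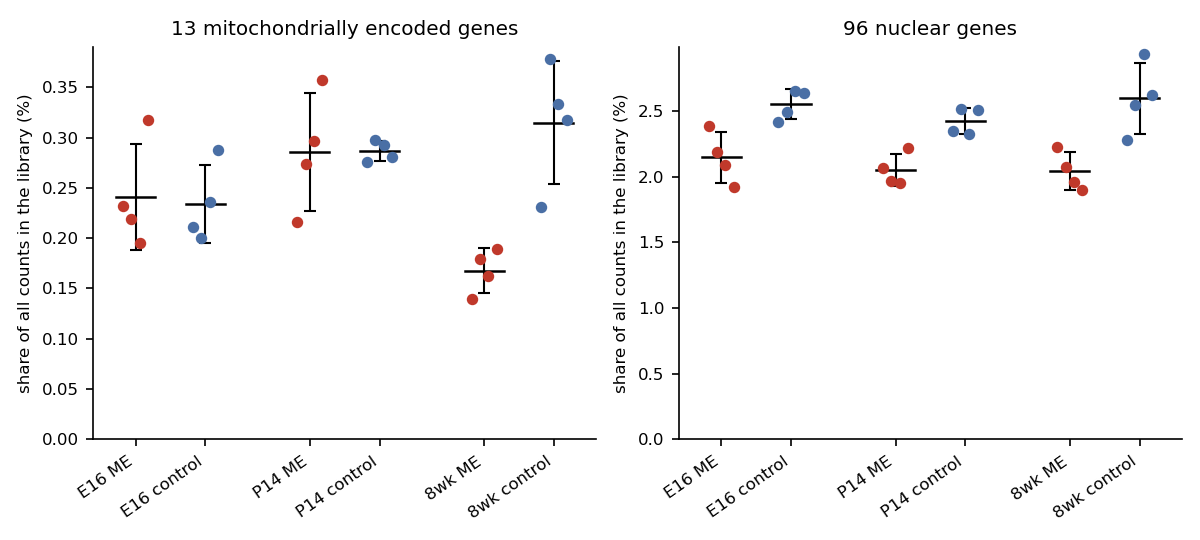
Share of all counts taken by the 13 mitochondrially encoded genes (left) and the 96 nuclear genes (right), in percent, with 1 point per library, ME (red) left of control (blue) at each age, and bars for mean ± SD. The nuclear share is lower in ME cells at all 3 ages, and the mitochondrial share is lower in ME cells at 8wk, at 0.139 to 0.190% against 0.231 to 0.378% in control cells.

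Compared with control cells of the same age, ME cells had lower levels of many nuclear respiratory chain genes and higher levels of almost none. At E16, 18 of the 91 genes fell and 0 rose (edgeR quasi-likelihood test, adjusted p under 0.05), where 8.47% of all 18931 genes tested fell and 13.3% rose. At P14, 17 fell and 1 rose, where 9.35% of all genes fell and 12.7% rose. At 8wk, 53 fell and 1 rose, where 14.3% of all genes fell and 14.2% rose. The median log2 fold change of the 91 genes was -0.31 at E16, -0.22 at P14 and -0.41 at 8wk, and that of all genes tested was 0.02, 0.03 and -0.02. The fold change was negative for 87, 78 and 86 of the 91 genes at E16, P14 and 8wk. The ME libraries lay wholly below the control libraries for 37 genes at E16, 29 at P14 and 15 at 8wk, against 12.8, 12.4 and 9.04% of all genes tested. For the 0 genes that rose at E16, an unadjusted p under 0.05 also gave 0, as did DESeq2 and limma-voom.

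These counts moved with a few choices. Without E16 ME replicate 4, 10 nuclear genes fell at E16, and without E16 ME replicate 1, 35. At P14, same-numbered ME and control libraries deviated together, and a fit of the P14 libraries alone with the replicate number as a block called 27 lower; without P14 control replicate 1 the joint fit called 26. Without the 3 libraries that stood apart, 17 fell at E16, 31 at P14 and 56 at 8wk. At 8wk, 25 fell without control replicate 3, 64 without control replicate 1, and 22 when the 8wk libraries were fitted alone. The split of all called genes also moved with the scaling: 61.1% of E16 calls and 57.5% of P14 calls were higher in ME cells with TMM, against 74.6 and 70.5% when only library size was used. The 3 comparisons of ME with control share no libraries with each other, but they come from a joint fit with a shared estimate of the spread. Same-numbered 8wk ME libraries also deviated together with E16 ME and with P14 ME libraries. The 3 comparisons are thus not shown to be independent.

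**Figure D2:**
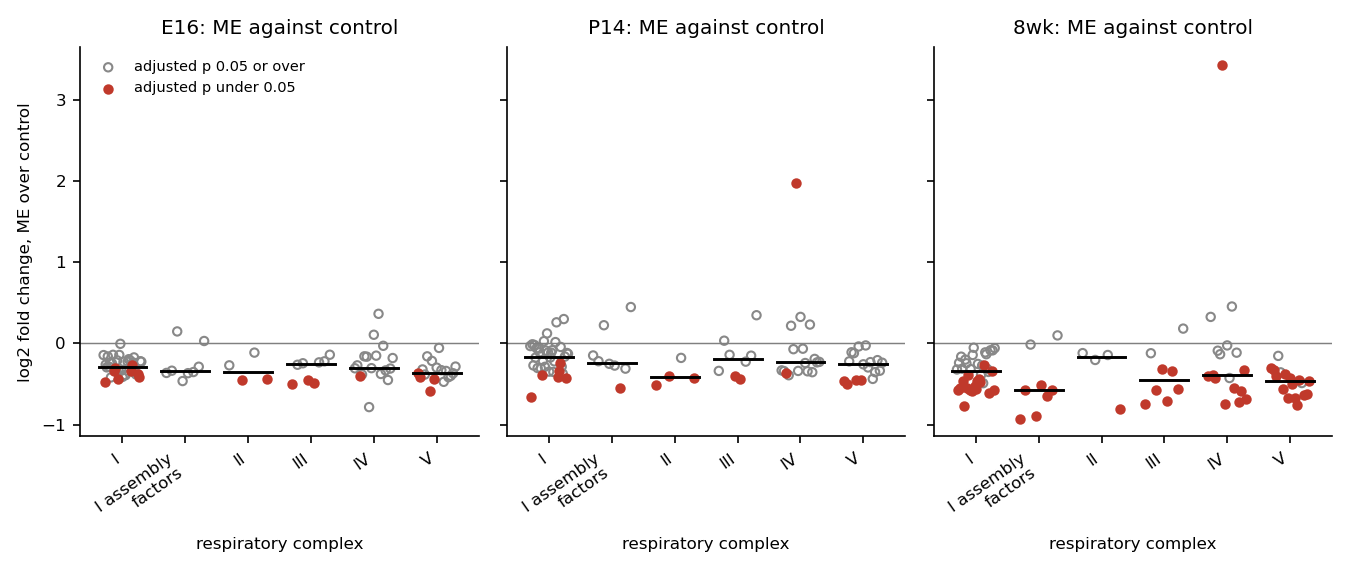
The log2 fold change (ME over control) of the 91 nuclear genes that passed the filter, grouped by complex, at each age, with filled points for an adjusted p under 0.05 and a line at each group's median. Most points lie below 0 at each age (87 of 91 at E16, 78 at P14 and 86 at 8wk), and the single point far above 0 at P14 and 8wk is Cox6a2.

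Summed levels of marker genes also moved with the groups. At E16 the sum of 6 megakaryocyte markers was 43.9 to 72.8 CPM in ME cells and 188 to 493 CPM in control cells, and that of 6 neutrophil markers was 41.5 to 1022 CPM in ME cells and 1065 to 5562 CPM in control cells. At P14 the sum of 6 T and NK cell markers was 8.55 ± 0.86 CPM in ME cells and 4.29 ± 0.64 CPM in control cells. Most of it was Cd4, at 7.47 CPM in ME cells and 3.98 CPM in control cells. Cd3g (0.064 and 0.110 CPM) and Cd8a (0.023 and 0.044 CPM) were lower in ME cells, and the rest higher. The P14 sum of 7 endothelial and stromal markers was 62.8 to 72.0 CPM in ME cells and 48.5 to 61.8 CPM in control cells. Of these, Emcn averaged 22.2 CPM in ME cells and 11.1 CPM in control cells. Pecam1 (40.9 and 42.2 CPM), Cdh5 and Col3a1 were lower in ME cells, and Kdr, Col1a1 and Cxcl12 higher. At 8wk the sum of the 8 LSK markers was 3047 to 3737 CPM in ME cells and 2286 to 2569 CPM in control cells, and Kit alone stood at 1075 to 1763 CPM in ME cells and 376 to 596 CPM in control cells. Also at 8wk, the sum of 6 B cell markers was 70.7 to 93.7 CPM in ME cells and 37.0 to 65.9 CPM in control cells, the endothelial and stromal sum was 71.1 to 105 CPM in ME cells and 60.9 to 65.9 CPM in control cells, and that of 6 mast cell and basophil markers was 31.2 to 89.1 CPM in ME cells and 162 to 186 CPM in control cells. The groups did not overlap in any of these sums or in Kit alone at 8wk. The other sums overlapped, among them the B cell sum, at 62.9 to 175 CPM in ME cells and 51.8 to 65.3 CPM in control cells at E16, and at 38.1 to 308 CPM in ME cells and 38.4 to 42.9 CPM in control cells at P14. Of these defining markers, Cd3e was at 0 in 16 libraries, Col3a1 and Cxcl12 in 15 each, Ncr1 in 12, Ly6g in 10, Ms4a1, Col1a1 and Fcer1a in 7 each, Cdh5 in 5, Cd8a in 4, Cd3g, Ngp, Camp and Prss34 in 2 each and S100a9 in 1. Their part in the results on respiratory chain genes was not tested. The 6 hepatocyte markers summed to 6.44 to 28.1 CPM over all libraries, with Alb at 0 in 15 of 24.

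The 11 nuclear genes that fell at all 3 ages came from all of the complexes, where 3.66% of all genes fell at all 3 ages. They were Ndufs1, Ndufa9 and Ndufa10 of complex I, Sdhd of complex II, Uqcrc1 and Uqcrc2 of complex III, Cox5a of complex IV, and Atp5a1, Atp5b, Atp5g1 and Atp5g3 of complex V. Of these, Ndufs1, Ndufa9 and Cox5a were singled out after their values were seen. In all, 58 of the 91 nuclear genes fell at 1 age or more, as 20.5% of all genes did, and 33 at none. At 8wk, 37 fell that had not passed the test as lower at E16 or P14, as held for 8.11% of all genes; whether the fall itself differed between ages was tested separately and is given further on.

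Complex II oxidises succinate and is the one complex that also belongs to the citric acid cycle. Sdhd, one of its membrane anchors, stood at 543, 485, 480 and 407 CPM in E16 ME cells, against 620, 675, 663 and 633 CPM in E16 control cells. In P14 ME cells it stood at 503, 477, 437 and 460 CPM, against 606, 650, 618 and 651 CPM in P14 control cells. In 8wk ME cells it stood at 490, 465, 460 and 441 CPM, against 553, 773, 1055 and 872 CPM in 8wk control cells. The groups did not overlap at any age. The log2 fold change was -0.44 ± 0.12 at E16, -0.43 ± 0.12 at P14 and -0.81 ± 0.12 at 8wk (SE, edgeR adjusted p = 0.0139, 0.0155 and 7.41e-05). The widest spread was in 8wk control cells, at 813 ± 209 CPM. The E16 call was lost without E16 ME replicate 4, where the log2 fold change was -0.37; over all its alternatives the adjusted p ran from 0.00472 to 0.0597.

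Sdha, the catalytic flavoprotein of complex II, fell at P14, to 651 ± 22.0 CPM in ME cells against 929 ± 134 CPM in control cells (log2 fold change -0.51 ± 0.11, adjusted p = 0.00249). Sdhb, the iron-sulphur subunit and named after its values were seen, fell at E16 (336 ± 33.2 CPM in ME cells, 459 ± 20.9 CPM in control cells, -0.45) and at P14 (266 ± 18.0 CPM in ME cells, 350 ± 17.1 CPM in control cells, -0.40). At 8wk neither passed the test, with log2 fold changes of -0.12 for Sdha and -0.20 for Sdhb. Sdhc, the other membrane anchor, named as the remaining gene of the complex, passed at no age.

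In complex III, Uqcrc2, a core protein, stood at 246, 229, 217 and 196 CPM in E16 ME cells, against 304, 306, 314 and 319 CPM in E16 control cells. The groups did not overlap at E16, nor at P14 (206 to 226 CPM in ME cells, 257 to 320 CPM in control cells) or 8wk (229 to 253 CPM in ME cells, 277 to 519 CPM in control cells). Its log2 fold change was -0.49 ± 0.12, -0.44 ± 0.12 and -0.70 ± 0.12 at E16, P14 and 8wk (SE, adjusted p = 0.0069, 0.0125 and 0.000272). Uqcrc1, the other core protein, fell by 0.46, 0.40 and 0.32 on the log2 scale at the 3 ages, and the 8wk call was lost in 5 of 20 alternatives (adjusted p up to 0.115). The small subunit Uqcr10, the highest of complex III per kilobase, fell to 165 ± 28.5 CPM in E16 ME cells against 235 ± 13.7 CPM in E16 control cells, and the call was lost in 3 of 20 alternatives. At 8wk, 6 of the 8 genes of complex III fell.

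In complex V, Atp5a1 and Atp5b encode the alpha and beta subunits of the catalytic head. Atp5b stood at 2897, 2604, 2476 and 2380 CPM in P14 ME cells, against 3335, 3608, 3619 and 4077 CPM in P14 control cells, with no overlap (log2 fold change -0.50 ± 0.09, SE, adjusted p = 0.000551). At E16 it averaged 2745 ± 274 CPM in ME cells and 3662 ± 119 CPM in control cells (-0.42), and at 8wk 2770 ± 196 CPM in ME cells and 3483 ± 456 CPM in control cells (-0.33, with overlap, lost in 2 of 20 alternatives). Atp5a1 fell by 0.36, 0.46 and 0.30 on the log2 scale at E16, P14 and 8wk, with no overlap at any age. The proton-driven ring of c subunits is made from Atp5g1, Atp5g2 and Atp5g3, which encode the same mature protein.

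Atp5g1 had the largest E16 fall of the nuclear genes that passed the test. It stood at 351, 295, 313 and 235 CPM in E16 ME cells, against 439, 453, 444 and 459 CPM in E16 control cells (-0.59 ± 0.13, SE, adjusted p = 0.00191). The control libraries lay close together and the ME libraries spread below them. Atp5g3, the highest of these c subunit genes per kilobase at 349 CPM per kb over all libraries, fell by 0.44, 0.45 and 0.67 on the log2 scale at E16, P14 and 8wk, and its call was lost in 8 of 20 alternatives at E16 (adjusted p up to 0.136) and in 5 of 21 at P14 (up to 0.0938). Atp5g2 fell at 8wk (-0.38), and at E16 and P14 its values were -0.22 and -0.04, not past the test. At 8wk, 14 of the 17 genes of complex V fell, beside 4 at E16 and 4 at P14.

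In complex I, 8 of 37 subunit genes fell at E16, 6 at P14 and 17 at 8wk. Ndufa10, an accessory subunit, had the largest fall at P14 and stood at 98.8, 90.5, 106 and 106 CPM in ME cells, against 125, 128, 187 and 192 CPM in control cells (-0.66 ± 0.12, SE, adjusted p = 0.000416). The P14 control libraries split into a lower and a higher pair, and both pairs lay above every ME library. At E16 Ndufa10 averaged 92.0 ± 6.67 CPM in ME cells and 128 ± 4.86 CPM in control cells (-0.48), and at 8wk 101 ± 10.7 CPM in ME cells and 150 ± 12.2 CPM in control cells (-0.57). Ndufs1, a core iron-sulphur subunit, had close replicates, and at 8wk it stood at 189, 187, 192 and 195 CPM in ME cells, against 221, 228, 232 and 234 CPM in control cells (-0.26 ± 0.07, SE, adjusted p = 0.00578). Among 7 core subunits 3 fell at 8wk, and among 30 accessory subunits 14 did.

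The 2 largest nuclear falls at 8wk were in assembly factors of complex I, which help build it and are not part of the finished enzyme. Ndufaf1 stood at 33.8, 34.1, 27.4 and 34.7 CPM in 8wk ME cells, against 40.2, 64.0, 76.7 and 66.4 CPM in 8wk control cells (-0.93 ± 0.16, SE, adjusted p = 0.000181). Ndufaf4 stood at 46.4, 43.8, 41.2 and 38.8 CPM in 8wk ME cells, against 49.6, 82.9, 106 and 77.5 CPM in 8wk control cells (-0.89 ± 0.18, SE, adjusted p = 0.000788). In both, control replicate 1 was the lowest control library and still lay above every ME library. After Sdhd, the accessory subunit Ndufa5 followed with a log2 fold change of -0.78 ± 0.18. None of the 20 alternatives run for each of these 3 genes ended its call. Of the 8 assembly factors tested, 6 fell at 8wk and 1 at P14 (Ndufaf6, -0.55). Ndufaf3 and Ndufaf8, named because they are the 2 left out, passed at no age.

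**Figure D3:**
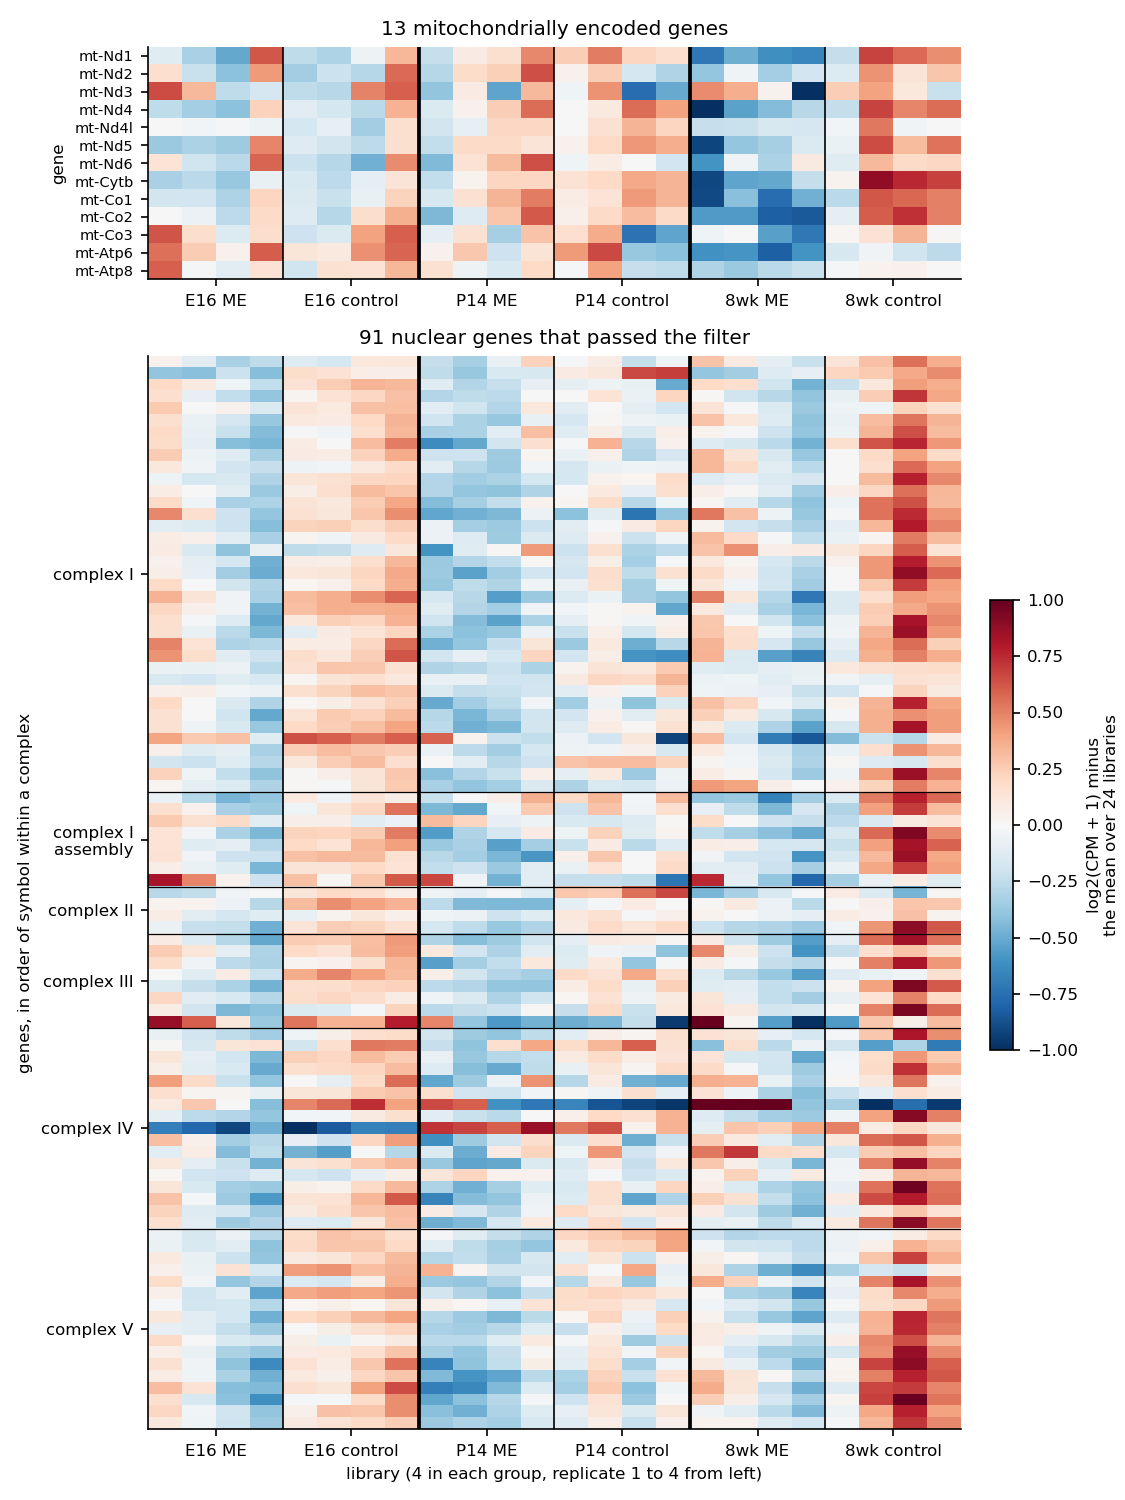
The log2(CPM + 1) of each gene minus its mean over the 24 libraries, for the 13 mitochondrially encoded genes (top) and the 91 nuclear genes that passed the filter (bottom, by complex), with 4 libraries per group in columns and ME left of control at each age. Nuclear genes are mostly below their mean in ME libraries, and most mitochondrially encoded genes are below their mean in the ME libraries at 8wk.

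Promoters of the nuclear genes are known to carry sites for NRF1, for ETS-family factors such as GABP and for YY1. Of the 96 nuclear genes, 76 had a promoter in RefSeq (GRCm38.p6, 250 bases before to 50 after the start site). Both strands were searched for GCGC, any base and TGCGC in a row (NRF1), CCGGAAG (ETS) and AAGATGGC (YY1). The NRF1 motif was in 19 of the 76 (25.0%) against 5.19% of 27025 genes and 4.6% of 32851 promoters in the table. The ETS motif was in 19 (25.0%) against 9.93% of genes and 8.86% of promoters, and the YY1 motif in 11 (14.5%) against 3.19% of genes and 2.75% of promoters. Among genes that fell at 8wk, 14 of 46 held the NRF1 motif, 11 the ETS motif and 7 the YY1 motif; among those not called, 5 of 28 held the NRF1 motif, 8 the ETS motif and 4 the YY1 motif. The other 2 genes were not tested. These matches describe the letters of the windows and are not sites or causes.

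The 250 bases before the start site are shown for the 3 nuclear genes with the largest falls at 8wk, with motif matches in capitals. The Sdhd window (chr9:50603850-50604099, minus strand) holds the NRF1 motif 79 bases and the ETS motif 46 bases before the start, both read on the other strand. The Ndufaf4 window (chr4:24897833-24898082, plus strand) holds the NRF1 motif 113 bases before the start, and the Ndufaf1 window (chr2:119662835-119663084, minus strand) the ETS motif 18 bases before it.
Sdhd: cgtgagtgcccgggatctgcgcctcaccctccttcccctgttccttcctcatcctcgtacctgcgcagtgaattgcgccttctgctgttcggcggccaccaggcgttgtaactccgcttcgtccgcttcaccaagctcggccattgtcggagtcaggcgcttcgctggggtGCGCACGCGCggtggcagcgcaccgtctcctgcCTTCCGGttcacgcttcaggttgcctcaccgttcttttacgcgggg
Ndufaf4: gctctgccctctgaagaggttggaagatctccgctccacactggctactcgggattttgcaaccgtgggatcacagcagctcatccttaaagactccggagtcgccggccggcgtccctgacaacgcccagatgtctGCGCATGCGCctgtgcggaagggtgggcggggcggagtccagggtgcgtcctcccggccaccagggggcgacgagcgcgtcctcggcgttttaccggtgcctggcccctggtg
Ndufaf1: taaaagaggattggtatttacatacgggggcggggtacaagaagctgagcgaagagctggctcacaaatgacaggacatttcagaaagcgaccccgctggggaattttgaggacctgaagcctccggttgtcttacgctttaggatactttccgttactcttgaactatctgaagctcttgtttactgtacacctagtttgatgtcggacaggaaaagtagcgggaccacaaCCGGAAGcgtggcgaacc

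Mitochondrial DNA encodes 7 subunits of complex I, cytochrome b of complex III, 3 subunits of complex IV and 2 of complex V, all on one small circular chromosome. Comparing ME with control cells, none of the 13 passed the test at E16 or P14, and 7 fell at 8wk with 0 rising (edgeR, adjusted p under 0.05). At E16 and P14 an unadjusted p under 0.05 also gave 0 genes in both directions, as did DESeq2 and limma-voom. The median log2 fold change was 0.03 at E16, -0.06 at P14 and -0.96 at 8wk. At 8wk all 13 fold changes were negative, and for 10 of the 13 the ME libraries lay wholly below the control libraries, which held for 9.04% of all genes tested.

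mt-Cytb, cytochrome b, had the highest level per kilobase of the 13, at 586 CPM per kb over all libraries. It stood at 342, 445, 449 and 544 CPM in 8wk ME cells, against 659, 1188, 1083 and 1034 CPM in 8wk control cells (-1.15 ± 0.15, SE, adjusted p = 1.73e-05). The ME libraries all lay below the control libraries, and the 2 nearest were the ones that stood apart from their groups. At E16 mt-Cytb ranged over 493 to 609 CPM in ME cells and 534 to 701 CPM in control cells, and at P14 over 540 to 744 CPM in ME cells and 709 to 836 CPM in control cells, with overlap at both ages. mt-Nd1, a core subunit of complex I, stood at 312, 365, 334 and 326 CPM in 8wk ME cells, against 434, 818, 759 and 706 CPM in 8wk control cells (-1.02 ± 0.22, SE, adjusted p = 0.00141). Its E16 ME libraries held 471, 410, 358 and 788 CPM against 429, 415, 495 and 645 CPM in E16 control cells, the highest being the ME library that stood apart.

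mt-Co1, the catalytic subunit of complex IV, stood at 381, 535, 421 and 512 CPM in 8wk ME cells, against 592, 1098, 1064 and 1013 CPM in 8wk control cells (-1.03 ± 0.18, SE, adjusted p = 0.000215). mt-Co2, which receives electrons from cytochrome c, stood at 16.1, 16.1, 13.4 and 13.2 CPM in 8wk ME cells, against 22.7, 37.5, 41.0 and 34.9 CPM in 8wk control cells (-1.21 ± 0.20, SE, adjusted p = 0.000189). In both genes control replicate 1 was the lowest control library, above every ME library. The complex I genes mt-Nd4 (61.7 ± 12.7 CPM in 8wk ME cells, 120 ± 30.1 CPM in 8wk control cells, -0.96) and mt-Nd5 (106 ± 22.6 CPM in 8wk ME cells, 187 ± 38.8 CPM in 8wk control cells, -0.81) also fell. mt-Nd4l fell as well, from few counts, at 0.180 to 0.237 CPM in 8wk ME cells and 0.349 to 0.996 CPM in 8wk control cells (-1.29 ± 0.46, SE, adjusted p = 0.040), and this call was lost in 11 of 19 alternatives. None of the 20 alternatives ended the call of any of the other 6.

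The remaining mitochondrial genes did not pass the test at 8wk. The ATP synthase genes mt-Atp6 (-0.50 ± 0.19, adjusted p = 0.055) and mt-Atp8 (-1.15 ± 0.45, adjusted p = 0.0573) and the complex IV gene mt-Co3 (-0.43 ± 0.24, adjusted p = 0.191) still had ME libraries wholly below the control libraries. The complex I genes mt-Nd2 (-0.43), mt-Nd6 (-0.37) and mt-Nd3 (-0.11) overlapped between groups. In 2 places these genes overlap on the chromosome, mt-Atp8 with mt-Atp6 and mt-Nd4l with mt-Nd4, and mt-Nd6 lies on the other strand with its end inside mt-Nd5, so without the strand setting reads at these ends cannot be assigned.

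**Figure D4:**
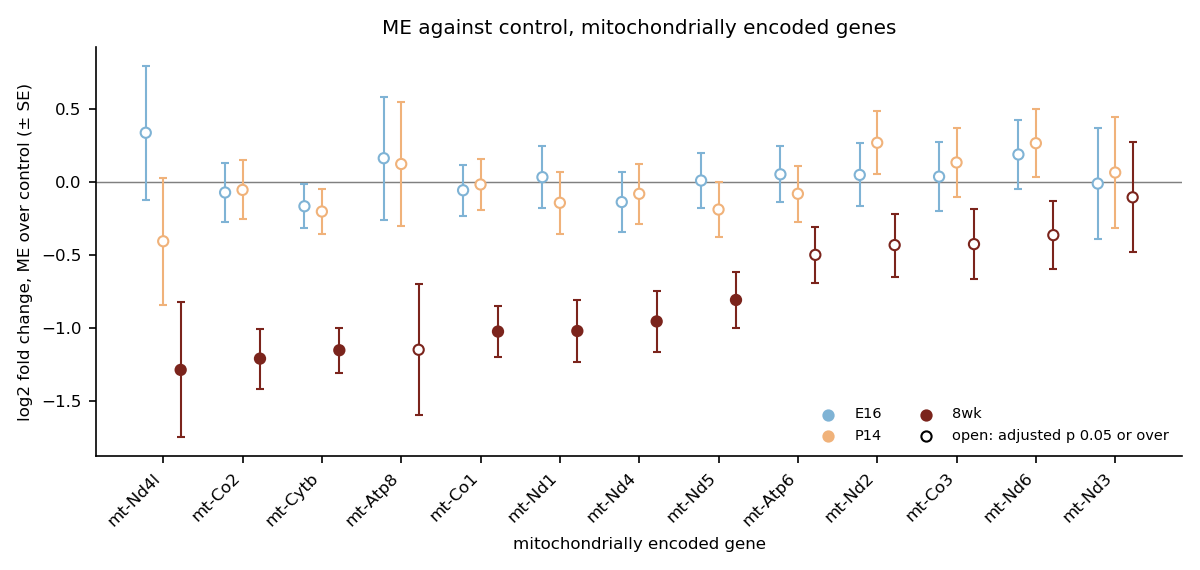
The log2 fold change (ME over control) of each mitochondrially encoded gene at E16, P14 and 8wk, with bars for ± SE from edgeR and filled points for an adjusted p under 0.05. The E16 and P14 values lie about 0 with no filled point, and the 7 filled points are all at 8wk, between -0.81 and -1.29.

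Copies of mitochondrial DNA in the nuclear genome bear on these counts. Comparing 50-base windows with all GENCODE M21 transcripts, 7 of the 13 mitochondrial genes shared over 50% of their windows with annotated copies on chromosome 1, and mt-Nd1, mt-Cytb, mt-Nd6 and mt-Atp8 shared none. By this search the levels of mt-Nd1 and mt-Cytb are free of such sharing. Copies outside the annotation, or without an exact match over a whole window, were not searched for. The levels of mt-Co2, mt-Co3, mt-Atp6, mt-Nd3 and mt-Nd4l, with 98.0% of windows or more shared, are uncertain. Those of mt-Nd4 and mt-Co1, with 62.2 and 51.1% of windows shared, are uncertain in part. The first bases are shown for mt-Co2 (chrM:7013-7072, plus strand) beside its copy Gm28661 (chr1:24615506-24615565, minus strand), and for mt-Nd3 (chrM:9459-9518, plus strand) beside Gm28438 (chr1:24613060-24613119, minus strand), from GENCODE M21 on GRCm38. A stretch of mt-Co1 (chrM:6381-6440, plus strand) stands beside the start of Gm29216 (chr1:24616138-24616197, minus strand). Capitals mark bases that differ within a pair.
mt-Co2: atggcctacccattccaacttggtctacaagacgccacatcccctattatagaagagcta
Gm28661: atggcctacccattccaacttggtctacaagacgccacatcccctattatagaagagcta
mt-Nd3: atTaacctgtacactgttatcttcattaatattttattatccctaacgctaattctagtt
Gm28438: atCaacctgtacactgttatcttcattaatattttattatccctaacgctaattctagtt
mt-Co1: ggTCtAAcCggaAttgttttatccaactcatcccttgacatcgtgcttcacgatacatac
Gm29216: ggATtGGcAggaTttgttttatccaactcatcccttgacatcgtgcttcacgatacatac
Over their whole aligned lengths, 0 of 681 bases differed between mt-Co2 and Gm28661, 1 of 345 between mt-Nd3 and Gm28438, and 6 of 492 between mt-Co1 and Gm29216. At 8wk Gm28661 averaged 18.0 ± 0.61 CPM in ME cells and 40.0 ± 8.85 CPM in control cells, beside 14.7 ± 1.62 CPM in ME cells and 34.0 ± 7.95 CPM in control cells for mt-Co2, while Gm28438 averaged 32.1 ± 11.6 CPM in ME cells and 27.6 ± 5.56 CPM in control cells, above mt-Nd3 at 5.93 ± 2.79 CPM in ME cells and 6.38 ± 1.30 CPM in control cells. With the copies added, the mitochondrial share was 0.190 ± 0.021% in 8wk ME cells and 0.346 ± 0.063% in 8wk control cells, with ranges that did not overlap.

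The difference between ages in the ME effect was tested on its own. For the 8wk effect minus the P14 effect, none of the 91 nuclear and none of the 13 mitochondrial genes passed, where 0.301% of all genes did. An unadjusted p under 0.05 held for 10 nuclear genes more negative and 4 more positive at 8wk, and for 7 mitochondrial genes, all more negative at 8wk. The share of all genes at an unadjusted p under 0.05 was not counted, and 0.301% is not a background for these counts. DESeq2 called 3 mitochondrial and 0 nuclear genes, limma-voom 0 of both, and edgeR without the 3 libraries that stood apart 6 mitochondrial genes and, of the nuclear genes, 3 more negative and 1 more positive. For the 8wk effect minus the E16 effect, mt-Cytb passed (-0.99, adjusted p = 0.0273), as did Cox6a2, where 0.85% of all genes passed. The mt-Cytb call was lost in 11 of 28 alternatives, and its adjusted p ran from 0.000305 to 0.0939. Same-numbered E16 ME and 8wk ME libraries deviated together, and with the replicate number as a block 6 mitochondrial genes passed, all more negative at 8wk, mt-Cytb among them. For the P14 effect minus the E16 effect, 0 genes of either genome passed with edgeR, DESeq2 or limma-voom. Of all genes, 0.0211% passed with edgeR at an adjusted p under 0.05. At an unadjusted p under 0.05 there was 1 nuclear gene, again with no share of all genes counted at that threshold. With the block, 2 mitochondrial genes passed for the 8wk effect minus the P14 effect. The nuclear falls seen at 8wk and not at the other ages are thus not shown to differ between ages.

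The single nuclear gene that rose was Cox6a2, the isoform of a complex IV subunit that is typical of heart and skeletal muscle. It stood at 14.5, 5.76, 4.72 and 1.05 CPM in 8wk ME cells, against 1.14, 0.210, 0.594 and 0.386 CPM in 8wk control cells (log2 fold change 3.43 ± 0.64, SE, adjusted p = 0.00056). The groups overlapped, since ME replicate 4 lay below control replicate 1, and both are libraries that stood apart. At P14 it stood at 3.26, 3.08, 0.774 and 0.645 CPM in ME cells, against 0.709, 0.479, 0.422 and 0.371 CPM in control cells (1.97 ± 0.63, SE, adjusted p = 0.0273), and that call was lost in 7 of 21 alternatives. At E16 it stood at 1.89, 2.25, 1.70 and 1.01 CPM in ME cells and 2.77, 2.98, 3.49 and 2.56 CPM in control cells, wholly lower in ME cells but not past the test (-0.78, adjusted p = 0.37). The 8wk effect exceeded the E16 effect by 4.22 on the log2 scale (adjusted p = 0.0214), a call lost in 6 of 28 alternatives. At 8wk the neutrophil marker sum was 1356, 1206, 827 and 37.0 CPM in the same ME libraries and 788, 30.4, 17.1 and 21.1 CPM in the control libraries, so the ME library lowest in Cox6a2 and the control library highest in it were also lowest and highest in this sum. Its part in this result was not tested.

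The widely expressed isoform Cox6a1 held 282 ± 50.5 CPM in 8wk ME cells and 309 ± 36.5 CPM in 8wk control cells and passed at no age. Cox6b2, an isoform typical of testis, did not pass between ME and control at any age but differed between E16 liver and the later marrow cells. Its usual counterpart Cox6b1 fell at 8wk, to 238 ± 17.8 CPM in ME cells against 400 ± 108 CPM in control cells (-0.75 ± 0.13, SE, adjusted p = 0.000264). Of the other subunits that have isoforms, Cox4i1 (-0.41), Cox7a2 (-0.54), Cox8a (-0.33) and Ndufa4 (-0.68) fell at 8wk, while Cox4i2 (0.33), Cox7a1 (0.45) and Cox7a2l (-0.11) did not pass. The Cox8a call (adjusted p = 0.0438) was lost in 12 of 20 alternatives, that of Cox7a2 in 3 and that of Cox4i1 in 2, without 8wk control replicate 3 among them for each, at -0.23, -0.35 and -0.21.

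**Figure D5:**
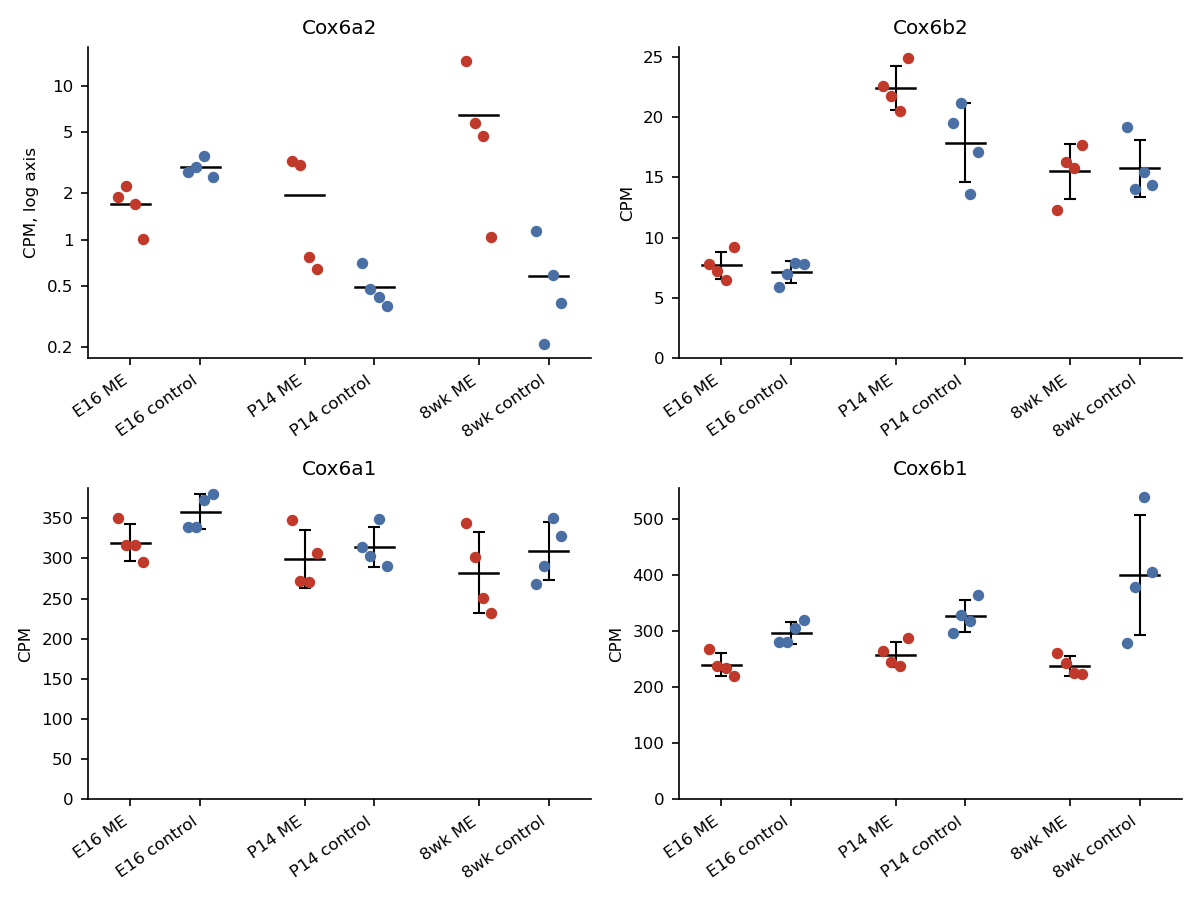
Level in CPM of Cox6a2 (log axis), Cox6b2, Cox6a1 and Cox6b1 in each library, ME (red) left of control (blue) at each age, with a line at each group's mean and, on the linear axes, bars for ± SD. Cox6a2 is highest in 3 of the 4 ME libraries at 8wk, and Cox6b2 is lower in both E16 groups than in the P14 and 8wk groups.

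Control cells alone show how these genes vary between the stages. Comparisons with E16 also set liver against marrow, so only 8wk against P14 compares ages within 1 tissue. Comparing P14 with E16, 1 nuclear gene rose and 9 fell, where 7.61% of all genes rose and 7.51% fell. Comparing 8wk with P14, 29 rose and 4 fell, where 7.01% rose and 5.58% fell. Comparing 8wk with E16, 6 rose and 6 fell, and of the mitochondrial genes 1 rose, where 12.5% rose and 10.8% fell. The median log2 fold changes of the 91 genes were -0.19, 0.37 and 0.17 in these 3 comparisons, which share control libraries; that of all genes tested was 0.01, 0.05 and 0.05. Without E16 control replicate 4 the 9 falls at P14 became 3, and with the 2 groups fitted alone 19. The 6 rises at 8wk over E16 became 1 without 8wk control replicate 3 and 30 without 8wk control replicate 1. Besides Cox6a2, the 9 that fell were 7 complex I genes, among them Ndufb6 (-0.67), Ndufb1-ps (-0.66) and Ndufc2 (-0.62), and Sdhb of complex II (-0.39).

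The gain between P14 and 8wk rested on few libraries. Of nuclear genes, 1 rose without 8wk control replicate 3, 57 without 8wk control replicate 1, 60 without the 3 libraries that stood apart, and 3 when the 2 groups were fitted alone. Of all 91 nuclear genes tested, 5 were wholly higher at 8wk, where 7.88% of all genes were, and 4 wholly lower, where 8.22% were. Of the 29 that rose, 4 were wholly higher, and the 4 that fell were wholly lower. Among the 4 wholly higher was Ndufb1-ps, a complex I subunit gene, at 89.5, 133, 154 and 123 CPM in 8wk control cells, against 68.3, 84.2, 54.4 and 69.4 CPM in P14 control cells (0.85 ± 0.20, SE, adjusted p = 0.0094), a call lost without 8wk control replicate 3. The 4 that fell were Cox4i2 (-0.83), Sdha (-0.56), Ndufv1 (-0.31) and Atp5a1 (-0.25), with calls lost in 2, 0, 4 and 8 of 20 alternatives. With library size only, 43.2% of all calls in this comparison were higher, against 55.7% with TMM.

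Cox6b2 was the 1 nuclear gene that rose between E16 and P14. It stood at 5.88, 7.01, 7.89 and 7.84 CPM in E16 control cells, 19.5, 21.2, 13.7 and 17.1 CPM in P14 control cells and 19.2, 14.0, 15.4 and 14.4 CPM in 8wk control cells. The P14 and 8wk libraries all lay above the E16 libraries, and the log2 fold change was 1.32 ± 0.16 for P14 over E16 and 1.14 ± 0.16 for 8wk over E16 (SE, adjusted p = 4.02e-06 and 1.67e-05). In ME cells it ranged over 6.52 to 9.18 CPM at E16, 20.5 to 24.8 CPM at P14 and 12.3 to 17.6 CPM at 8wk. Cox6a2 went the other way in control cells, at -2.58 for P14 over E16 and -2.29 for 8wk over E16. Among complex I genes, Ndufs7, a core subunit next to the quinone site, fell to 103 ± 28.9 CPM in P14 control cells against 181 ± 6.30 CPM in E16 control cells (-0.81 ± 0.23, SE, adjusted p = 0.021), and that call was lost in 2 of 20 alternatives, 1 of them without P14 control replicate 4. mt-Cytb rose to 991 ± 231 CPM in 8wk control cells against 603 ± 70.4 CPM in E16 control cells (0.72 ± 0.15, SE, adjusted p = 0.00141), with overlapping groups.

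Per kilobase of exon, levels spread widely among the members. The highest nuclear gene of complex V was Atp5a1 at 805 CPM per kb over all libraries, of complex IV Cox4i1 at 488, of complex II Sdhd at 474, of complex III Uqcr10 at 335 and of complex I Ndufa2 at 242 CPM per kb. Assembly factors of complex I lay lower, at 7.65 to 34.6 CPM per kb. Among mitochondrial genes the level ran from 1.34 CPM per kb (mt-Nd4l) to 586 CPM per kb (mt-Cytb). This range is uncertain as a range of expression. mt-Nd4l shared 98.8% of its windows with nuclear copies and overlaps mt-Nd4, while mt-Cytb shared none. The nuclear members are short, with a median exonic length of 1587 bases against 3336.5 bases for all genes tested, and a median GC content of 50.2% against 49.2%. That of the mitochondrial members was 37.1%. Over the nuclear genes, GC content and the ME log2 fold change had a Spearman correlation of 0.0815 at E16, 0.221 at P14 and 0.448 at 8wk. With the GC content offset, the mitochondrial median for the 8wk minus the P14 effect was -0.53, against -0.87 without it. The cause was not tested.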

How the data were processed

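RNA-seq of 24 libraries in 6 groups of 4 was used. The authors deposited raw counts per gene in 1 table of 55774 lines, in which 168 identifiers stood on several lines and were kept once. RNA was prepared with RNeasy and Clontech kits, per the labels' protocols. STAR 2.7.9a, featureCounts 2.0.3 of Subread and the build GRCm38 were used, per the submitters' processing notes. Which annotation release, strand setting and filters on reads applied is not given in the sources used here. All per-sample columns were used.

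Genes with low counts were removed with filterByExpr (minimum count 10), leaving 18931. All 24 libraries were scaled by TMM and fitted together with edgeR 4.0.16 (R 4.3.3), the robust quasi-likelihood test giving 9 comparisons, each adjusted by Benjamini-Hochberg over all genes with a threshold of 0.05. CPM values are TMM-scaled, and the SE of a log2 fold change was taken from the test's F value. The scripts were tested on simulated data. Alternatives used limma 3.58.1, DESeq2 1.42.0, other scalings and filters, GC and length offsets, a replicate block, and fits without single libraries.

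The members and lists were chosen with earlier results of these data known. Genes named were all mitochondrial members, the 4 nuclear members with the largest rise and fall in each comparison (at least 5 CPM), the highest per length in each complex, and isoforms. Same-numbered ME and control libraries at P14 deviated together (r = 0.187, 0.143, 0.137 and 0.232 for numbers 1 to 4), and those at E16 and 8wk did not, so within an age only the P14 numbers were taken to pair libraries. Across ages, E16 ME and 8wk ME libraries also did (r = 0.343, 0.121, 0.16 and 0.478). So did P14 ME and 8wk ME libraries (r = 0.21, 0.134, 0.0898 and 0.177) and, less evenly, E16 control and 8wk control libraries (r = 0.27, 0.0392, 0.126 and 0.0722). Shared deviation by number is thus not particular to P14, and what the numbers stand for was not tested. The pairing comes from these correlations and not from the labels. Lengths and transcript sequences came from GENCODE M21 (109 of 109 members matched), promoters from RefSeq.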

Additional observations from a re-analysis of the deposited data

Results flagged for a closer look

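Among 312 sets of 4 replicate values, 9 (2.88%) held a library that lay far from the other 3; chance gives such a value in about 1 in 20 sets. At E16, Ndufa10 stood at 102 CPM in ME replicate 3 against 87.9 to 90.0 CPM in the other ME libraries, and mt-Nd5 at 201 CPM in ME replicate 4 against 110 to 114 CPM. In E16 control replicate 4, Ndufaf4 stood at 80.2 CPM against 64.6 to 66.5 CPM and mt-Nd2 at 116 CPM against 60.9 to 66.9 CPM. At P14, Ndufb1-ps stood at 87.3 CPM in ME replicate 4 against 63.0 to 66.4 CPM. In 8wk ME replicate 3, Ndufaf1 stood at 27.4 CPM against 33.8 to 34.7 CPM and mt-Atp6 at 31.4 CPM against 36.5 to 36.9 CPM. In 8wk control cells, mt-Co1 stood at 592 CPM in replicate 1 against 1013 to 1098 CPM, and mt-Nd4l at 0.996 CPM in replicate 2 against 0.349 to 0.386 CPM.

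In 2 genes the ME effect differed between ages by the test of the difference (edgeR). The 8wk effect minus the E16 effect was -0.99 for mt-Cytb (adjusted p = 0.0273) and 4.22 for Cox6a2 (adjusted p = 0.0214), on the log2 scale.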

How the results depend on the processing

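No called result changed direction under any alternative; among the alternative values for counts and shares, 784 stayed near the reported value and 108 moved. Counts are of genes called, with the value as reported first; the cause of a change was not tested, and fits of only the compared groups or with libraries left out hold fewer samples. ME against control: nuclear genes lower at E16, 18, ran from 10 to 35 with single libraries left out; at P14, 17, from 14 to 26, with 31 without the 3 libraries that stand apart and 27 with a replicate block in the P14 libraries alone (16 with the block in all libraries); at 8wk, 53, from 25 to 64, with 22 when fitted alone. Nuclear genes higher at P14, 1, were 2 with library size only, GC or length offsets, 0 with no filter or limma-voom, and 0 to 1 with libraries left out; at 8wk, 1, they were 2 with the length offset. The 7 mitochondrial genes lower at 8wk were 6 to 8, with 8 under the replicate block and when fitted alone. For the 8wk minus the P14 effect, mitochondrial genes lower, 0, were 1 with a 1 CPM filter, 3 with DESeq2, 2 with the replicate block, 6 without the 3 libraries and 0 to 4 with libraries left out; nuclear genes, 0, were 3 lower and 1 higher without the 3 libraries, and 0 to 3 lower. For the 8wk minus the E16 effect, mitochondrial genes lower, 1, were 3 with a 1 CPM filter, 4 with DESeq2, 6 with the replicate block or without the 3 libraries, 2 with the length offset, 0 with limma-voom or fitted alone, and 0 to 6; nuclear genes higher, 1, were 0 with no filter or limma-voom, and 0 to 1; nuclear genes lower, 0, were 4 without the 3 libraries, and 0 to 3. Control P14 against E16: nuclear lower, 9, were 3 with no filter, 19 fitted alone, 16 without the 3 libraries, and 3 to 8; nuclear higher, 1, were 3 with the length offset, 2 without the 3 libraries, and 1 to 3; mitochondrial higher, 0, were 1 with the block, the GC offset or without the 3 libraries, 2 fitted alone, and 0 to 1. Control 8wk against P14: nuclear higher, 29, were 19 with no filter, 3 fitted alone, 60 without the 3 libraries, and 1 to 57; nuclear lower, 4, were 1 with the GC offset, 2 fitted alone, and 1 to 5; mitochondrial lower, 0, were 1 with the GC offset; mitochondrial higher, 0, were 1 without the 3 libraries, and 0 to 1. Control 8wk against E16: nuclear higher, 6, were 19 with the length offset, 1 fitted alone, 33 without the 3 libraries, and 1 to 30; nuclear lower, 6, were 3 with the GC offset, and 5 to 7; mitochondrial higher, 1, were 4 with the block, 6 without the 3 libraries, and 1 to 6; mitochondrial lower, 0, were 1 with DESeq2, the block, the GC offset or fitted alone. The mitochondrial share of 0.287% in P14 control cells was 0.269% without overlapping gene pairs and 0.316% with nuclear copies added; that of 0.168% in 8wk ME cells was 0.190% with copies. The last of these, the block in P14 libraries alone and the fits without 3 libraries were chosen after seeing the data. At E16 and 8wk, where the numbers do not pair libraries, the replicate block gave 18 and 52 nuclear genes lower. For the mitochondrial genes mt-Nd4l and mt-Atp8, at under 2 CPM in every library, few counts limit the precision. Both overlap another mitochondrial gene, and mt-Nd4l shared 98.8% of its windows with nuclear copies.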

Other observations

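Other mitochondrial gene groups also held genes that were lower in ME cells. Of all genes tested, 8.47% fell at E16, 9.35% at P14 and 14.3% at 8wk, and 13.3, 12.7 and 14.2% rose. Of 77 tested genes of the mitochondrial ribosome, which translates the mitochondrially encoded subunits, 38 fell at E16, 26 at P14 and 48 at 8wk (edgeR, adjusted p under 0.05), with median log2 fold changes of -0.35, -0.26 and -0.45, and 2, 1 and 2 rose. Mrps7, a small-subunit protein, fell by 0.61, 0.59 and 0.81 on the log2 scale. Of 25 genes of the citric acid cycle and pyruvate oxidation outside complex II, 17, 19 and 12 fell and 1, 0 and 1 rose, and Idh2, mitochondrial isocitrate dehydrogenase, fell by 0.42, 0.53 and 0.34. Of 31 genes of mitochondrial biogenesis and DNA expression, 6, 9 and 14 fell and 1 rose at each age. Tefm, the elongation factor of mitochondrial transcription, fell at 8wk to 29.2 ± 5.47 CPM in ME cells against 57.6 ± 16.0 CPM in control cells (-0.98). At E16 and P14 its values were -0.25 and -0.21, not past the test.

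Genes tied to the respiratory chain but outside the symbol rule held 2 that rose strongly. Coq2, an enzyme of ubiquinone synthesis, averaged 88.5 ± 28.4 CPM in E16 ME cells and 13.1 ± 3.82 CPM in E16 control cells. At P14 it averaged 103 ± 33.1 CPM in ME cells and 10.2 ± 4.31 CPM in control cells, and at 8wk 105 ± 30.8 CPM in ME cells and 16.4 ± 4.11 CPM in control cells. Its log2 fold changes were 2.75, 3.34 and 2.67 (edgeR adjusted p = 1.06e-05, 1.25e-06 and 1.45e-05). Ttc19, a complex III assembly factor, rose by 2.55, 2.79 and 2.47 on the log2 scale. Coq2 was in a list of 24 tested genes, of which 11, 9 and 13 fell and 2 rose at each age. Besides subunits and carriers, this list held other enzymes of ubiquinone synthesis, such as Coq6, and enzymes such as Dhodh. Of 39 further assembly factors, 7, 9 and 16 fell and 2, 1 and 2 rose.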
